A study of Homo sapiens with 26 samples.

Results

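The genes described here encode the cohesin ring and the proteins that load, release and stop it, namely RAD21, SMC3, STAG1, STAG2, NIPBL, MAU2, WAPL, PDS5A, PDS5B and CTCF. Every peak of H3K27ac or H3K4me1 that overlapped the body of a gene or the 25 kb to each side of it was taken, so the choice rested on the GRCh37 gene annotation and not on the signal. For each mark, peaks from its lists were first joined into regions where they overlapped or touched. Of 87570 merged H3K27ac regions, 162 lay in the windows of these 10 genes, 131 of them over a gene body. Of 110269 merged H3K4me1 regions, 124 lay in the windows, 85 of them over a gene body. Of the 162 H3K27ac regions, 18 were called in every list and 98 in a single list, against 18757 and 36404 of the 87570. Of the 124 H3K4me1 regions, 63 were called in every list, against 60476 of the 110269. PDS5A held the most H3K27ac regions (45), followed by MAU2 with 29 and CTCF with 23, while STAG2 and NIPBL held 3 each. For H3K4me1 the order was different, with 33 regions at STAG1, which spans 416.2 kb, and 4 at MAU2, which spans 37.9 kb.

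The libraries came from HCT116, a human colorectal carcinoma line with wild-type p53, and from a derivative that the labels call HCT116_RAD21. WT cells received DMSO (0 h) or Nutlin-3a for 1 h or 10 h, and Nutlin-3a, a blocker of the p53-MDM2 contact, stabilises p53. Cells of the RAD21 line received DMSO or Nutlin-3a for 1 h. H3K27ac was profiled in all 5 of these conditions and H3K4me1 in the 3 WT conditions, with 2 biological replicates each, which gave 10 and 6 peak lists. Per the study's methods, the RAD21 line carries an auxin-inducible degron on RAD21, and the protein was degraded with an auxin analogue before Nutlin-3a was added. The labels name no auxin, although the peak names of the 4 lists of this line contain KD. The RAD21 line is a single edited derivative, so its difference from WT covers the tag, the auxin analogue and clonal differences alike, which cannot be told apart here. HCT116 was checked against its markers, and the promoters of 6 of 6 epithelial genes (such as EPCAM and KRT8) were acetylated in all 10 lists, while 6 of 7 leukocyte, fibroblast and endothelial genes had no promoter peak in any list and CD79A had one in 1 list.

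The H3K27ac lists differ in the form of their peak names, in covered length and in fold enrichment, and this bears on several comparisons. Per the study's methods, peaks were called against an input. Whether any list was called in another way is not given in the sources used here. In the 2 WT 0 h lists and in replicate 1 of WT 1 h, the peak names lack the word input that the other 7 H3K27ac lists carry, and these 3 lists cover 30.7 to 31.9 Mb against 49.1 to 66.6 Mb in the others. At the promoters of the 10 genes the fold enrichment reported by the peak caller ran from 5.55 to 14.31 in those 3 lists and from 13.86 to 171.87 in the other 7. WT at 10 h against 0 h, and the RAD21 line against WT at 0 h, compare lists of different forms, and form is separated from time or line there only by the 2 WT 1 h lists, whose forms differ. The RAD21 line at 1 h against 0 h lies within a single form. For the other comparisons the value within a single form is given where it moved the call. The 2 WT 1 h lists, one of each form, disagreed more than the other pairs over the whole genome. Their rank scores over 18757 shared regions had r = 0.907 and an SD of the difference of 0.432. The other H3K27ac pairs had 0.959 to 0.977 and 0.213 to 0.287. Because the SE draws on all lists, contrasts that use WT 1 h take up this wider spread only in part. Among the promoters, the pair stood at 66.4 and 77.2 at MAU2 and at 91.3 and 77.8 at PDS5B. Leaving out either list made or ended calls that are given gene by gene. Where such a fit changed a call in a contrast that does not use WT 1 h, the change itself stayed the same and the SE, which all lists share in part, became smaller. Peak names of replicate 2 of the RAD21 line at 0 h carry BR2_BR3, and whether that list is 1 library or 2 pooled is not given in the sources used here. Each RAD21 line 0 h value rests on it as 1 of 2 replicates, and 5 of the calls below were lost without it (PDS5A and NIPBL in the RAD21 line at 1 h, STAG1 at 0 h and CARMIL2 in both). The libraries are bulk samples, in which fewer cells with a mark and less of it per cell cannot be told apart.

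Cohesin is a ring of SMC1A, SMC3 and RAD21 with either STAG1 or STAG2, and it holds sister chromatids together and extrudes DNA loops. NIPBL and its partner MAU2 load the ring and stimulate it, WAPL with PDS5A or PDS5B releases it, and CTCF bound to DNA stops it, so that loop ends tend to lie at CTCF sites. H3K27ac marks active promoters and enhancers, and H3K4me1 marks primed and active enhancers and the flanks of active promoters.

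The promoters of 4 genes are shown because the results turn on them: SMC3, NIPBL and MAU2 had the most called changes among the promoters, and CTCF had the smallest spread of summits. Each stretch covers the 250 bp before and the 50 bp after the start site and was read from GRCh37 on the plus strand, at chr10:112327203-112327502 for SMC3, chr5:36876621-36876920 for NIPBL, chr19:19431388-19431687 for MAU2 and chr16:67596179-67596478 for CTCF. Capitals mark matches, on either strand, to the GC box (GGGCGG), the CCAAT box, an ETS motif (CCGGAAG) or CCCTC, which is a part of the CTCF motif and can overlap the GC box.
SMC3 promoter: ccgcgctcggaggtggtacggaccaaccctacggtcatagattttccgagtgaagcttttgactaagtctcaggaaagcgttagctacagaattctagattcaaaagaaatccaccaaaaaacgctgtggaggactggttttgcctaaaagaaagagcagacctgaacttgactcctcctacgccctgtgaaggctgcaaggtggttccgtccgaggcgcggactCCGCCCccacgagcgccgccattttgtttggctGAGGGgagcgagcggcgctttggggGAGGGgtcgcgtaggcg
NIPBL promoter: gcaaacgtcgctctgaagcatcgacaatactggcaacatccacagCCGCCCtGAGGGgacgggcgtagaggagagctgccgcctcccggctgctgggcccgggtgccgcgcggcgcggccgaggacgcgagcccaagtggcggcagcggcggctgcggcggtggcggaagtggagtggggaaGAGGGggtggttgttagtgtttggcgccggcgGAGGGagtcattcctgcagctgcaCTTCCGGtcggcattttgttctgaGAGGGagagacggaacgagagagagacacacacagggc
MAU2 promoter: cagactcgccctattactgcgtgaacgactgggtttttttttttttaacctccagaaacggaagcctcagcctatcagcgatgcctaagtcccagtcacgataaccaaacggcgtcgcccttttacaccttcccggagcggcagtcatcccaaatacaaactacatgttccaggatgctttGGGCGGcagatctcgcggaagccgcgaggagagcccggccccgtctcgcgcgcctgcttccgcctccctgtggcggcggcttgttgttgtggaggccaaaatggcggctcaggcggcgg
CTCF promoter: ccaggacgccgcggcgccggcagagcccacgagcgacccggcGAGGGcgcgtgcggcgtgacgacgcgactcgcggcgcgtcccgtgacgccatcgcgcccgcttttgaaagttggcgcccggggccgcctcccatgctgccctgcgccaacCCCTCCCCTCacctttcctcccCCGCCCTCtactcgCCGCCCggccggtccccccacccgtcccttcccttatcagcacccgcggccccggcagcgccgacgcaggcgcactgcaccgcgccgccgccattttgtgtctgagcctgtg

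These windows differ in base composition. The CTCF promoter had a GC content of 75.3% with 46 CpG dinucleotides, and WAPL, PDS5A and PDS5B were alike, at 75.7% to 76.3% with 44 or 45. SMC3 had 56.0% and 23 CpG dinucleotides, and MAU2 had 58.7% and 27, against a median of 63.7% and 23 over all coding promoters. The GC box was present in 9 of the 10 promoters (all but STAG2) and in 61.5% of 19844 coding promoters of the same length. CCAAT was present in 4 (STAG1, WAPL, PDS5A and PDS5B) against 36.0%, and CCCTC in 9 (all but MAU2) against 77.4%, with 14 matches at STAG2. The ETS motif was present at NIPBL alone, against 14.2% of all promoters. The YY1 motif AAGATGGCG (2.85% of all promoters), the NRF1 motif GCGCATGCG (2.71%) and a p53 half-site (5.53%) matched none of the 10 windows.

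Every one of the 10 genes had an H3K27ac region at its promoter in all 10 lists, and all 10 were still called in each list when peaks needed a −log10 q-value of at least 5. When peaks had to cover 50% of the merged region, 4 of the 10 were called in every list (STAG2, WAPL, PDS5B and CTCF). To set lists of different scale side by side, each region was placed within its own list by its highest −log10 p-value, as a percentile of all regions called in that list. Over the 10 lists the mean percentile was highest at SMC3 (96.4 ± 2.96, SD, n = 10), CTCF (96.1 ± 1.16) and STAG1 (95.2 ± 3.28). It was lower at WAPL (93.2 ± 1.93), PDS5A (91.6 ± 3.13), RAD21 (91.5 ± 3.24), STAG2 (89.4 ± 4.44), NIPBL (87.9 ± 3.87) and MAU2 (86.0 ± 8.30), and lowest at PDS5B (79.2 ± 7.23). No 2 neighbours in this order differed beyond the SD of their difference over the lists, so the order describes the ends better than the middle. Ranked by fold enrichment, WAPL came first (92.7) and MAU2 last (81.7), and ranked by peak width, STAG2 came first (95.2) and SMC3 fell to place 8 (81.6), while CTCF was second in both. The lists that hold many weak regions, such as those of WT at 10 h, push strong regions to higher percentiles. Changes were therefore tested on the rank among the 18757 regions called in every H3K27ac list, turned into a normal score (called the rank score here, in SD units of the ranking), with limma and Benjamini-Hochberg adjustment over all 18757 regions.

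**Figure D1:**
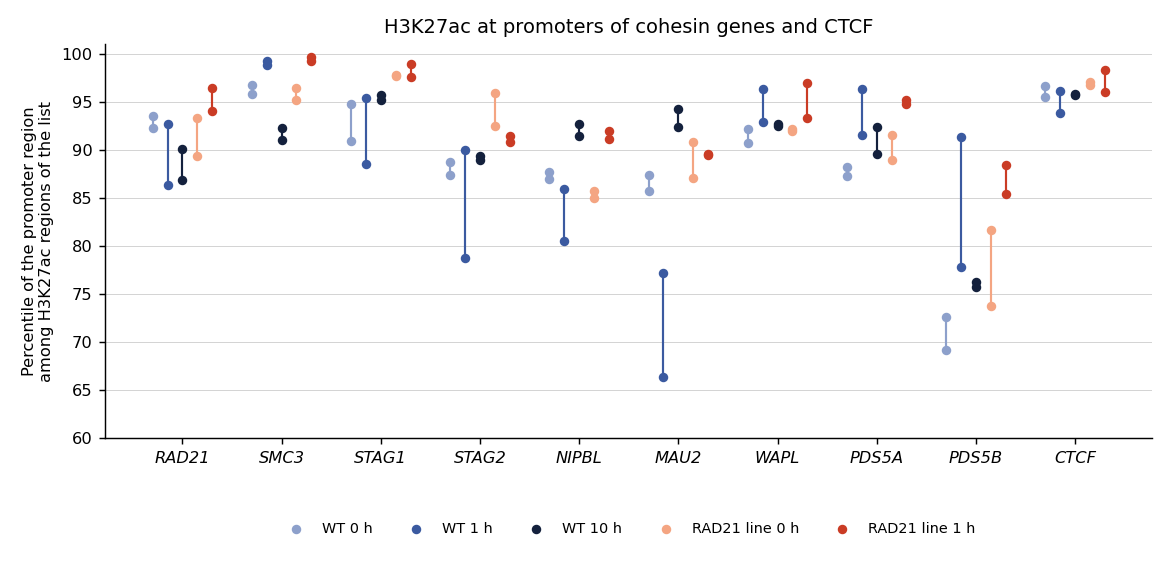
Percentile of the promoter region of each gene within its own list (vertical axis, percent of regions called in that list) on an axis that starts at 60, by condition, with 1 point per H3K27ac list and a line joining the 2 replicates of a group. SMC3 and CTCF stay above 90 in every list, PDS5B lies lowest in most, and MAU2 drops to 66.4 and 77.2 in WT at 1 h.

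RAD21 encodes the kleisin subunit that closes the ring and is the protein targeted in the RAD21 line. Its promoter region (chr8:117884454-117887692, which also holds the start of RAD21-AS1) stood at percentiles 92.3 and 93.5 in WT at 0 h, 86.3 and 92.7 at 1 h and 90.1 and 86.9 at 10 h. The RAD21 line had 89.4 and 93.3 at 0 h and 94.0 and 96.4 at 1 h, so the WT and RAD21 line lists overlapped at 0 h and did not at 1 h. Degradation acts on the protein, and acetylation of the gene is no check of it. The rank score of the RAD21 promoter fell by 0.58 ± 0.14 (SE) in WT at 10 h against 0 h (limma, adjusted p = 0.0165). At 1 h the change was −0.28 ± 0.14 in WT (adjusted p = 0.159) and 0.37 ± 0.14 in the RAD21 line (adjusted p = 0.0704). Without WT 1 h replicate 2 the WT change, then within a single form, passed (−0.41 ± 0.14, limma, adjusted p = 0.0221), as did the change in the RAD21 line (0.37 ± 0.11, 0.00893). The RAD21 line against WT at 1 h gave 0.41 ± 0.14 (limma, adjusted p = 0.0808), with 0.54 ± 0.14 (0.00416) when only the WT list of the other form was kept and 0.28 ± 0.14 (0.149) within a single form. The difference of these 1 h changes, 0.66 ± 0.20, passed the threshold (limma, adjusted p = 0.035) and was 0.79 ± 0.17 without WT 1 h replicate 2, the only list of another form in the WT part of that contrast. The 10 h call was lost without any 1 of the 4 WT lists at 0 h and 10 h (adjusted p of 0.0547 to 0.143). The difference lost its call in 6 of 10 fits that each left out 1 list, namely a WT list of 0 h or 10 h, replicate 1 of the RAD21 line at 0 h or its replicate 2 at 1 h (adjusted p of 0.0508 to 0.155). Both calls at RAD21 were also lost when ranks were taken by fold enrichment, with 0.37 ± 0.36 for the difference and −0.37 ± 0.25 at 10 h. For the difference, 0 of all 18757 regions passed in that setting.

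SMC3, which forms the heterodimer of the ring with SMC1A, had the largest called promoter changes among the ring genes. Its promoter stood at 95.8 and 96.7 in WT at 0 h, 98.8 and 99.2 at 1 h and 91.0 and 92.3 at 10 h. The lists of the RAD21 line had 96.4 and 95.2 at 0 h and 99.6 and 99.2 at 1 h. The 1 h lists were above the 0 h lists in both lines, and the WT 10 h lists were below both other WT time points. The rank score rose by 0.56 ± 0.14 in WT at 1 h (limma, adjusted p = 0.00929; 0.54 ± 0.13 within a single form) and by 0.87 ± 0.14 in the RAD21 line at 1 h (adjusted p = 0.000606). It fell by 0.69 ± 0.14 in WT at 10 h (limma, adjusted p = 0.00622). The 1 h changes did not differ detectably between the lines, with a difference of 0.31 ± 0.20 (adjusted p = 0.274). The WT 1 h call was lost without WT 0 h replicate 1 (adjusted p = 0.0958) or with the WT 0 h and 1 h lists alone (0.0764), and the 10 h call without WT 0 h replicate 2 (0.0753) or WT 10 h replicate 1 (0.0675). By fold enrichment none of these 3 calls held, with 0.03 ± 0.34, 0.68 ± 0.34 and −0.55 ± 0.34, respectively. At 1 h, 0 of all 18757 regions passed in either line in that setting.

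STAG1 and STAG2 encode the alternative subunits that join the ring in a mutually exclusive way. The STAG1 promoter stood at 94.8, 90.9, 88.5, 95.4, 95.2 and 95.7 in the WT lists in order of time, and at 97.8, 97.7, 97.6 and 98.9 in the RAD21 line, where each list was above all 6 WT lists. Its rank score was higher in the RAD21 line by 0.47 ± 0.17 at 0 h (limma, adjusted p = 0.0392) and by 0.73 ± 0.17 at 1 h (adjusted p = 0.0155). With the form of the peak name as a term, the difference at 0 h was 0.06 ± 0.20 (adjusted p = 0.859). At 1 h it was 0.52 ± 0.14 within a single form (limma, adjusted p = 0.0122). The call at 0 h was lost in 5 of 10 fits that left out 1 list (WT 0 h replicate 2, either WT 10 h list or either list of the RAD21 line at 0 h, adjusted p of 0.058 to 0.301), and the call at 1 h was lost without replicate 2 of the RAD21 line at 1 h (0.155). Nutlin-3a gave no called change at STAG1 (−0.10 ± 0.17 in WT and 0.15 ± 0.17 in the RAD21 line at 1 h). STAG2, which lies on the X chromosome, stood at 88.7, 87.4, 78.7, 90.0, 88.9 and 89.4 in WT and at 92.5, 95.9, 90.8 and 91.4 in the RAD21 line. It was likewise higher in each list of the RAD21 line, but no STAG2 contrast passed the threshold with all lists, and the nearest was 0.34 ± 0.15 at 0 h (limma, adjusted p = 0.0811). Without WT 1 h replicate 2, STAG2 passed in 4 contrasts, at −0.44 ± 0.13 in WT at 1 h (adjusted p = 0.00974), −0.27 ± 0.10 in the RAD21 line at 1 h (0.0361), and 0.34 ± 0.10 and 0.51 ± 0.13 for the RAD21 line against WT at 0 h and 1 h (0.00767 and 0.0037). The last of these compares lists of different forms, and within a single form it was 0.10 ± 0.13 (limma, adjusted p = 0.631). Without WT 1 h replicate 1 STAG2 passed in the RAD21 line at 1 h (0.0357) and against WT at 0 h (0.0075).

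The loader genes moved apart between the lines. The NIPBL promoter stood at 87.0 and 87.7 in WT at 0 h, 80.5 and 85.9 at 1 h and 92.7 and 91.4 at 10 h, and at 85.7 and 85.0 in the RAD21 line at 0 h and 92.0 and 91.1 at 1 h. The lists of the RAD21 line rose with Nutlin-3a while both WT 1 h lists were below the WT 0 h lists. The rank score of NIPBL rose by 0.42 ± 0.11 in the RAD21 line at 1 h (limma, adjusted p = 0.0118), with −0.29 ± 0.11 in WT (adjusted p = 0.0648, and −0.32 ± 0.11 with 0.0338 within a single form). The difference of the changes was 0.71 ± 0.15 (limma, adjusted p = 0.00577), and at 1 h NIPBL was higher in the RAD21 line by 0.43 ± 0.11 (adjusted p = 0.0243). The call within the RAD21 line was lost without its 0 h replicate 2 (adjusted p = 0.0956) or either 1 h list (0.0825 and 0.0575), and the call against WT was lost without either of the same 1 h lists (0.155 and 0.113). Without either WT 1 h list, NIPBL also ranked lower in the RAD21 line at 0 h (−0.28 ± 0.09, adjusted p = 0.0158 in both fits). The 10 h percentiles above those at 0 h go with a rank score change of 0.06 ± 0.11, since only regions shared by all lists enter it.

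MAU2 shares its promoter region (chr19:19429289-19433334) with SUGP1, a coding gene transcribed the other way, so the acetylation cannot be assigned to either gene. The region stood at 87.4 and 85.7 in WT at 0 h, 66.4 and 77.2 at 1 h and 94.2 and 92.4 at 10 h. The RAD21 line had 87.1 and 90.8 at 0 h and 89.6 and 89.5 at 1 h. Both WT 1 h lists were below all 8 other lists, also in −log10 p-value (51.93 and 85.01, against 133.59 to 588.5). The rank score of MAU2 fell by 0.75 ± 0.12 in WT at 1 h (limma, adjusted p = 0.000894; −0.84 ± 0.12 within a single form), with 0.05 ± 0.12 in the RAD21 line (adjusted p = 0.787). The 1 h changes differed by 0.80 ± 0.17 (limma, adjusted p = 0.0049), and MAU2 was higher in the RAD21 line at 1 h by 0.79 ± 0.12 (adjusted p = 0.00218). For NIPBL and MAU2 alike, the direction was kept but no call passed the threshold with ranks by fold enrichment, where the differences of the 1 h changes were 0.21 ± 0.36 and 0.45 ± 0.39. In these contrasts 0 of all 18757 regions passed in that setting.

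Among the release genes, PDS5A had called changes with all lists, and WAPL and PDS5B had them only in fits without a WT 1 h list or with another setting. PDS5A stood at 87.3 and 88.2 in WT at 0 h, 91.5 and 96.3 at 1 h and 92.4 and 89.6 at 10 h, and at 88.9 and 91.5 in the RAD21 line at 0 h and 94.8 and 95.2 at 1 h. Its rank score rose by 0.43 ± 0.13 at 1 h in WT (limma, adjusted p = 0.0296) and by 0.43 ± 0.13 in the RAD21 line (adjusted p = 0.0294). Within a single form the WT change was 0.26 ± 0.12 (adjusted p = 0.102), so the WT call was lost without WT 1 h replicate 2, and it was also lost without either WT 0 h list (0.161 and 0.104). The call in the RAD21 line was lost without any 1 of its 4 lists (adjusted p of 0.0733 to 0.175) or without either WT 0 h list (0.051 and 0.0509). WAPL stood between 90.7 and 96.9 in all 10 lists, and its changes ran from −0.15 ± 0.17 (WT at 10 h) to 0.32 ± 0.17 (RAD21 line at 1 h). Without WT 1 h replicate 2, WAPL ranked higher at 1 h in WT, then within a single form (0.47 ± 0.14, limma, adjusted p = 0.0108). The RAD21 line contrast, which does not use that list, passed in the same fit through a smaller SE (0.32 ± 0.11, 0.0233, and 0.0226 without replicate 1 in its place). PDS5B varied more, at 69.2 and 72.6 in WT at 0 h, 91.3 and 77.8 at 1 h and 76.3 and 75.7 at 10 h, and at 81.7 and 73.8 in the RAD21 line at 0 h and 85.4 and 88.4 at 1 h. The 1 h lists of PDS5B were above the 0 h lists in both lines, with changes of 0.53 ± 0.23 in WT (limma, adjusted p = 0.106) and 0.51 ± 0.23 in the RAD21 line (adjusted p = 0.124). Within a single form the WT change of PDS5B was 1.00 ± 0.15 (limma, adjusted p = 3.74e-05). The change in the RAD21 line, which does not use the WT 1 h lists, kept its size and passed only through a smaller SE when either was left out (0.51 ± 0.12, 0.00229, and 0.0025). The RAD21 line against WT at 1 h gave 0.04 ± 0.23 at PDS5B (adjusted p = 0.934), 0.51 ± 0.16 (0.0224) within a single form and −0.43 ± 0.15 (0.0373) without WT 1 h replicate 2, so its direction turned on which WT 1 h list was used. With the form as a term PDS5B ranked higher in the RAD21 line at 0 h by 1.00 ± 0.22 (limma, adjusted p = 0.00159), against 0.06 ± 0.23 without it.

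CTCF, the zinc-finger protein at loop ends, was second to SMC3 in mean percentile and had the smallest SD of the 10 genes. It stood at 96.6, 95.5, 93.8, 96.1, 95.7 and 95.8 in the WT lists in order of time and at 97.0, 96.7, 96.0 and 98.3 in the RAD21 line. All 10 lists lay within 93.8 to 98.3, and no CTCF contrast passed the threshold with all lists or with 1 left out. The largest in size was 0.27 ± 0.15, for the RAD21 line against WT at 1 h (limma, adjusted p = 0.237). In WT at 10 h CTCF changed by −0.24 ± 0.15 (limma, adjusted p = 0.255). With the WT 0 h and 10 h lists alone this passed, at −0.23 ± 0.09 (limma, adjusted p = 0.0477).

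**Figure D2:**
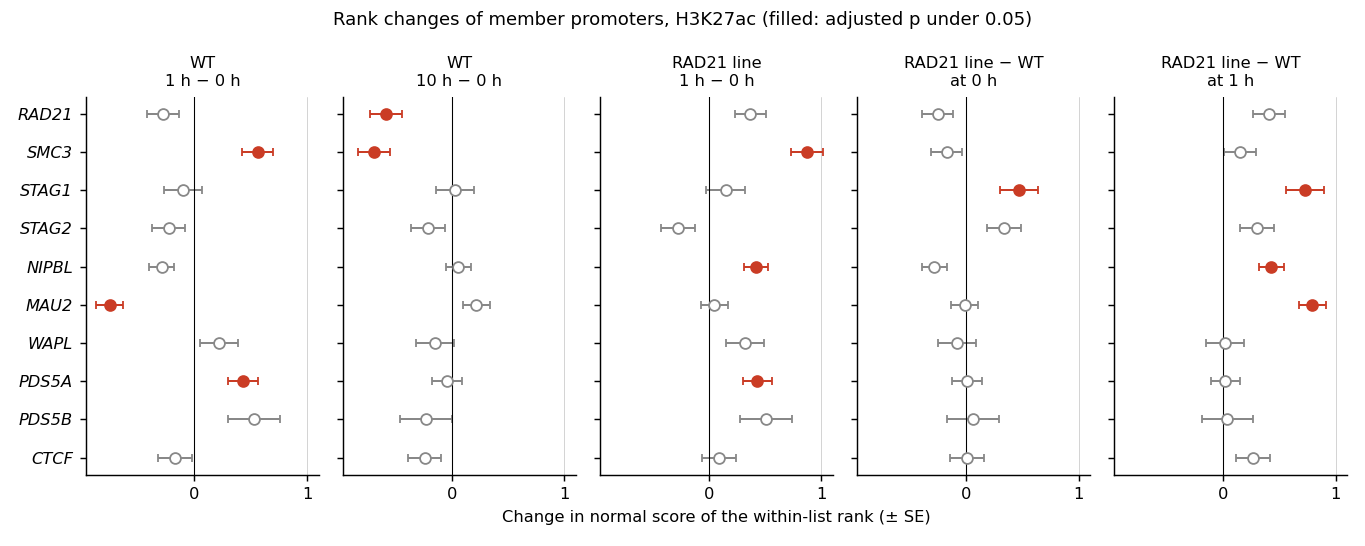
Rank score change of the H3K27ac promoter region of each gene (horizontal axis, SD units of the within-list ranking, point with SE bar) in the comparisons of Nutlin-3a time and of the RAD21 line with WT, with changes at an adjusted p under 0.05 set apart. SMC3 rises in both lines at 1 h and falls in WT at 10 h, MAU2 falls by 0.75 in WT at 1 h, and CTCF, STAG2, WAPL and PDS5B have no called change with all lists.

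Of the 18 H3K27ac regions called in every list, 10 were these promoters and 8 lay elsewhere in the windows. In WT at 1 h, 4 of the 18 ranked higher and 2 lower (22.2% and 11.1%), against 14.3% and 14.8% of all 18757 regions. At 10 h, 2 ranked higher and 3 lower, against 9.70% and 8.56%. Nutlin-3a for 1 h raised the rank of 4 and lowered that of 2 in the RAD21 line, against 14.4% and 13.4%. At 0 h, 3 regions ranked higher and 2 ranked lower in the RAD21 line than in WT, against 16.8% and 20.7%. The same comparison after 1 h gave 3 above and 1 below WT, against 5.68% and 6.16%. The difference of the 1 h changes was positive for 4 and negative for 2, against 11.7% and 11.0%. With 18 regions each share moves by several percent with a single region, and these counts lie near the background in most comparisons. The median change over the 18 was 0.0446 in WT at 1 h, −0.179 at 10 h and 0.132 in the RAD21 line at 1 h, with −0.00689, −0.0355 and 0.0374 over all regions. The contrasts share lists (the WT 0 h lists enter 4 of the 6), so the counts are not independent.

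The called regions outside the 10 promoters lay in the windows of CTCF and MAU2. A region at the start of ACD and PARD6A, 98.6 kb downstream of the CTCF start (chr16:67692301-67697720), had −log10 p-values of 52.22 and 56.17 in WT at 0 h, 76.22 and 130.63 at 1 h and 150.85 and 206.38 at 10 h. The RAD21 line had 414.36 and 498.59 before Nutlin-3a and 309.67 and 497.02 after 1 h, all above the 6 WT lists. As percentiles within each list, which do not depend on scale between lists, the RAD21 line at 1 h (89.4 and 86.8) overlapped WT at 10 h (85.0 and 87.7). ACD encodes a shelterin protein of telomeres and PARD6A a polarity protein. The region ranked higher in the RAD21 line at 0 h by 1.73 ± 0.12 (limma, adjusted p = 8.24e-07), at percentiles of 97.6 and 97.8 against 66.4 and 67.8 in WT, and this was the largest difference among the 18 regions. It was 1.53 ± 0.17 with the form of the peak name as a term and passed the threshold by fold enrichment too (adjusted p = 0.00522). With Nutlin-3a for 1 h its rank score rose by 0.46 ± 0.12 in WT (adjusted p = 0.0137) and fell by 0.94 ± 0.12 in the RAD21 line (limma, adjusted p = 0.000169), a difference of −1.41 ± 0.17 (adjusted p = 0.000172). By fold enrichment none of these passed (limma, adjusted p = 0.301, 0.177 and 0.168), and 0 of all 18757 regions did. With the WT 0 h and 1 h lists alone the rise in WT did not pass either (limma, adjusted p = 0.0884). The rise in WT at 1 h was lost without either WT 0 h list (adjusted p = 0.105 and 0.0588). At 1 h the RAD21 line against WT gave 0.32 ± 0.12 (limma, adjusted p = 0.102), with 0.42 ± 0.12 (0.0117) without WT 1 h replicate 2 and 0.23 ± 0.12 (0.205) within a single form. At 10 h in WT it ranked higher by 0.52 ± 0.12 (adjusted p = 0.0133), with 0.32 ± 0.17 (0.318) once the form was a term, and the call was lost without either WT 0 h list (0.104 and 0.0711) or WT 10 h replicate 2 (0.136). A neighbouring region (chr16:67686825-67688100, 91.0 kb downstream) lay at a start site of CARMIL2 other than the canonical one and is called CARMIL2 here. Its nearest canonical coding start was that of ACD, 6063 bp away. It moved the other way at 0 h, at −0.60 ± 0.18 in the RAD21 line (limma, adjusted p = 0.0173; 0.0755 with the form as a term). This call was lost without WT 0 h replicate 2 (−0.39) or either list of the RAD21 line at 0 h (−0.57 and −0.62). CARMIL2 changed by −0.63 ± 0.18 in WT at 10 h (adjusted p = 0.0271, 0.155 with the form as a term) and by 0.53 ± 0.18 in the RAD21 line at 1 h (0.0396), and the 1 h call was lost in 6 of 10 fits that left out 1 list (0.0533 to 0.232).

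Downstream of MAU2, towards GATAD2A, 2 intergenic regions lay inside a single H3K4me1 domain of 30761 bp (chr19:19471368-19502128) that was called in all 6 H3K4me1 lists. The nearer, 45.5 kb from the MAU2 start (chr19:19474953-19479272), had H3K27ac −log10 p-values of 181.9 and 151.2 in WT at 0 h, 43.53 and 52.19 at 1 h and 244.72 and 237.33 at 10 h. The RAD21 line had 79.86 and 164.5 at 0 h and 188.97 and 224.76 at 1 h. As at the MAU2 promoter, both WT 1 h lists were below all other lists. Its rank score fell by 1.14 ± 0.15 in WT at 1 h (limma, adjusted p = 0.000252; −1.12 ± 0.15 within a single form), with −0.25 ± 0.15 in the RAD21 line, a difference of 0.89 ± 0.21 (adjusted p = 0.00811, and 0.0505 without replicate 1 of the RAD21 line at 1 h). At 0 h it ranked lower in the RAD21 line (−0.48 ± 0.15, adjusted p = 0.0194, with −0.44 ± 0.21 and 0.139 once the form was a term). Without replicate 1 of the RAD21 line at 0 h this was −0.27 ± 0.15 (limma, adjusted p = 0.225), and the call was also lost without either WT 0 h list (0.123 and 0.0618). At 1 h the RAD21 line against WT gave 0.41 ± 0.15 here, which did not pass (limma, adjusted p = 0.0854), with 0.43 ± 0.15 within a single form. The farther region, 57.3 kb away (chr19:19487613-19490176), went the other way. It had −log10 p-values of 18.92 and 17.82 in WT at 0 h, 37.79 and 65.25 at 1 h and 44.66 and 44.11 at 10 h, and 51.67 and 72.09 in the RAD21 line at 0 h and 47.14 and 59.93 at 1 h. Its rank score rose by 0.76 ± 0.14 in WT at 1 h (limma, adjusted p = 0.00173) and fell by 0.67 ± 0.14 in the RAD21 line (adjusted p = 0.00313), a difference of −1.43 ± 0.19 (adjusted p = 0.000302). By fold enrichment none of these passed (limma, adjusted p = 0.0627, 0.183 and 0.114). At 0 h the farther region ranked higher in the RAD21 line by 0.94 ± 0.14 (limma, adjusted p = 0.000209), which held with the form as a term (0.70 ± 0.23, adjusted p = 0.0274) and by fold enrichment (1.22 ± 0.21, adjusted p = 0.00999). It also ranked higher in WT at 10 h (0.51 ± 0.14, adjusted p = 0.0238, but 0.0953 to 0.117 without any 1 of the 4 lists compared). At 1 h it ranked lower in the RAD21 line than in WT (−0.50 ± 0.14, limma, adjusted p = 0.0344), a call lost in 7 of 10 fits that left out 1 list (0.0505 to 0.199).

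**Figure D3:**
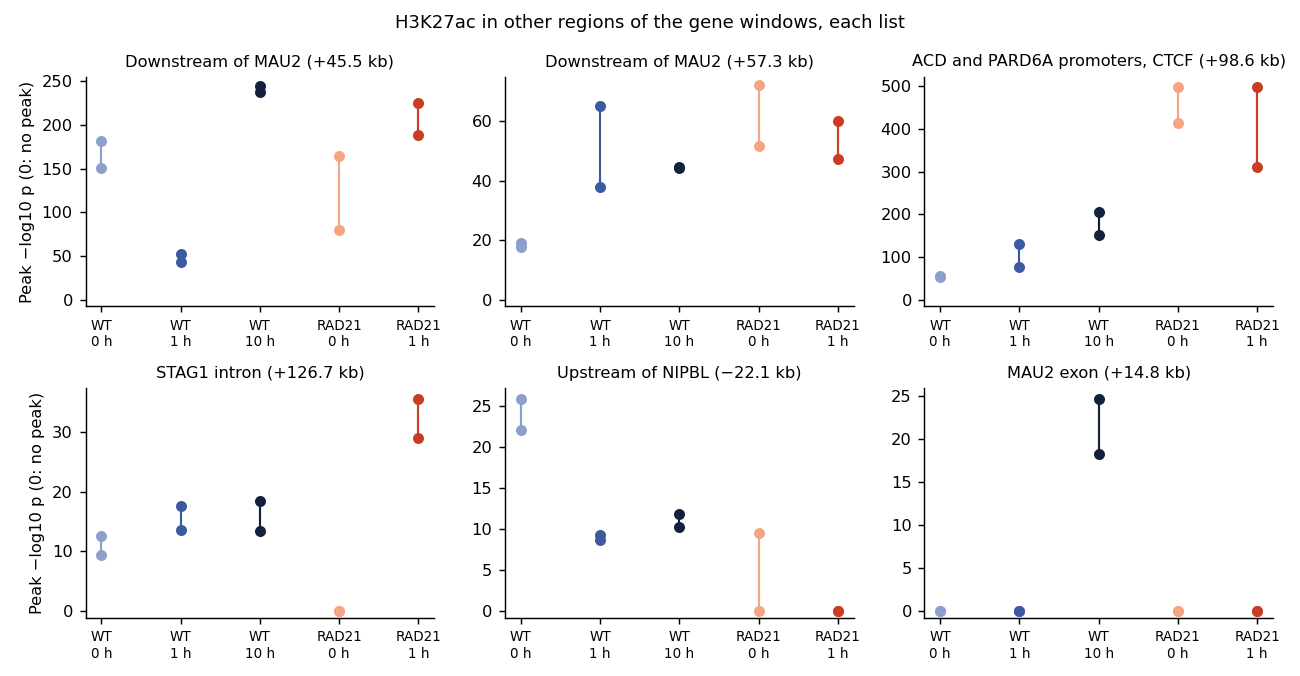
Highest H3K27ac −log10 p-value (vertical axis, its own linear scale in each panel, 0 where no peak was called) for 6 regions outside the 10 promoters, with 1 point per list by line and hours of Nutlin-3a and a line joining replicates. The region at ACD and PARD6A is at 309.67 or more in every list of the RAD21 line and at 206.38 or less in every WT list, and the region 45.5 kb from MAU2 is lowest in WT at 1 h.

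Regions that came or went were counted when both lists of a group had a peak and neither list of the other had. In WT at 1 h, 0 of the 162 regions were gained and 0 lost, against 1.51% and 1.32% of all 87570 regions. In WT at 10 h, 22 (13.6%) were gained and 0 lost, against 11.4% and 1.90%. The 22 lay in exons (10) or introns (12), with 8 at PDS5A, 5 at CTCF, 4 at MAU2, 2 each at RAD21 and WAPL and 1 at SMC3. Most were weak, with a median of the highest −log10 p-value of 7.16 and 16 of 22 under 10, and 9 regions were gained when peaks needed a −log10 q-value of at least 5. The strongest, an exonic region of MAU2 (chr19:19445550-19447371, 14.8 kb from the start), had values of 18.22 and 24.61 at 10 h and no peak in the other 8 lists. The same lists covered more of the genome, and the length under peaks rose in the windows too, from 3.66 and 2.63 kb to 19.0 and 18.59 kb at PDS5A and from 5.46 and 4.92 kb to 21.52 and 19.3 kb at MAU2. At MAU2 the length was 5.27 kb in WT 1 h replicate 1 and 14.08 kb in replicate 2, whose peak names have the form of the 10 h lists, and the part of that form in the 10 h gain was not tested.

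**Figure D4:**
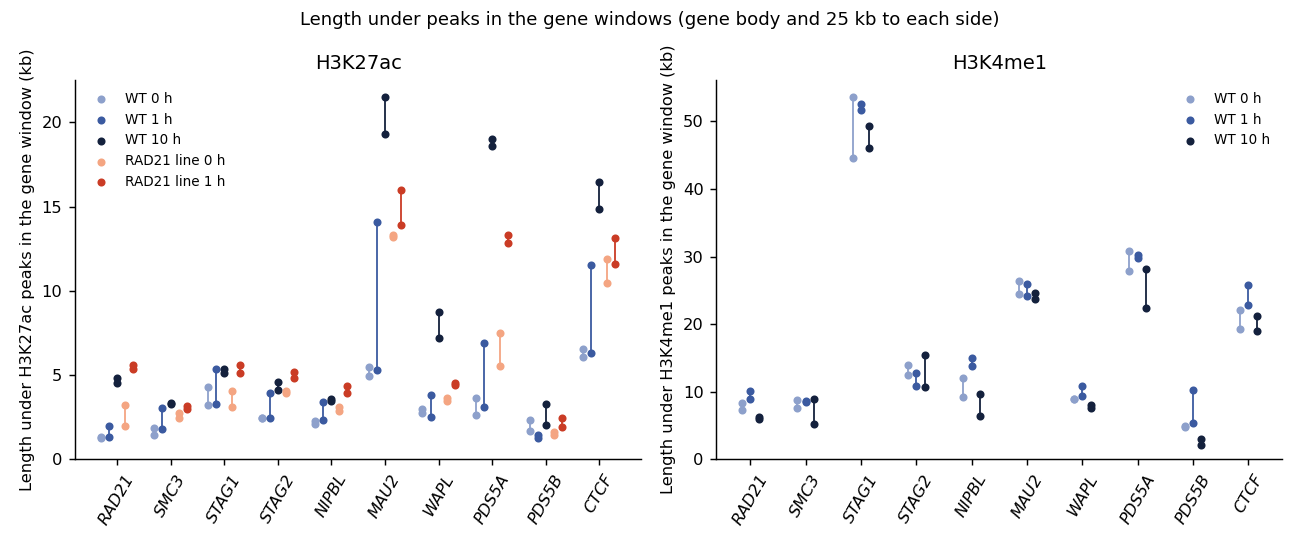
Length under peaks (vertical axis, kb) in the window of each gene, for H3K27ac (left) and H3K4me1 (right), with 1 point per list by line and hours of Nutlin-3a and a line joining replicates. For H3K27ac, PDS5A, MAU2, CTCF and WAPL reach their highest values in the WT 10 h lists, and PDS5B stays between 1.24 and 3.28 kb.

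An intronic element of STAG1 and an upstream element of NIPBL are shown because they were called in some conditions and missing from others. The sequences below are the 200 bp around the summit in the list named, read from GRCh37 on the plus strand, at chr3:136344461-136344660 (RAD21 line at 1 h, replicate 2) and chr5:36854670-36854869 (WT at 0 h, replicate 2), with CCAAT matches in capitals.
STAG1 intronic region: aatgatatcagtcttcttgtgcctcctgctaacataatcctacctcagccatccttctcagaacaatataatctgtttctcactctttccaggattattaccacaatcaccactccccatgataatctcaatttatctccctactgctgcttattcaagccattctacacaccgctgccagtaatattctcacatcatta
NIPBL upstream region: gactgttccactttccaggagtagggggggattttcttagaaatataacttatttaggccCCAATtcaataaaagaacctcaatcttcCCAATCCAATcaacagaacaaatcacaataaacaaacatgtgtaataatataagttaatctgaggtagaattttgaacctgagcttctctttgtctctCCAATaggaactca

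The STAG1 element (region chr3:136343664-136345309, in an intron 126.7 kb from the start) had none of the motifs searched and 1 CpG. Its H3K27ac −log10 p-values were 12.57 and 9.35 in WT at 0 h, 13.61 and 17.61 at 1 h and 13.39 and 18.37 at 10 h. It had no peak in either list of the RAD21 line at 0 h and 29.02 and 35.49 at 1 h, so it was called in 8 of 10 lists and missing only from the RAD21 line at 0 h. It lay inside an H3K4me1 region (chr3:136342283-136346084) with −log10 p-values of 13.99 to 27.12 in all 6 WT lists. The NIPBL element (chr5:36854540-36855026, 22.1 kb upstream of the start and intergenic) had 4 CCAAT matches, no CpG and a GC content of 35.5%. Its −log10 p-values were 22.03 and 25.8 in WT at 0 h, 9.23 and 8.66 at 1 h and 11.8 and 10.22 at 10 h, and 9.45 and no peak in the RAD21 line at 0 h, with no peak in either list at 1 h. It is the region lost at 1 h in the RAD21 line relative to WT. A fall below the threshold of the peak caller cannot be told from an absence of the mark.

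After 1 h in the RAD21 line, 7 regions (4.32%) were gained and 1 (0.617%) lost, against 4.60% and 2.87%. Compared with WT, the RAD21 line had gained 2 and lost 1 at 0 h, against 5.29% and 2.83%, and had gained 9 and lost 1 at 1 h, against 3.23% and 1.15%. Of the 9, 3 lay in RAD21 itself. An intronic region 5.2 kb from the RAD21 start (chr8:117881457-117882193) had −log10 p-values of 11.48 and 7.74 after 1 h in the RAD21 line and of 10.33 and 11.68 in WT at 10 h, with no peak in the other 6 lists. An exonic region 23.2 kb from the start (chr8:117863289-117864338) had 6.55 and 7.39 and was called in those 2 lists only. A STAG2 exonic region (chrX:123197786-123198544) had 8.76 and 15.02, and a PDS5A intronic region (chr4:39827126-39828687) had 13.03 and 19.51 at 1 h and 6.61 in 1 list at 0 h.

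The position of the H3K27ac summit at the promoter was described after its values had been seen. At CTCF it lay 113 to 150 bp downstream of the start site in all 10 lists, a span of 37 bp, and at WAPL 330 to 400 bp downstream. At MAU2 it lay 198 to 303 bp downstream in 8 lists and upstream (−200 and −186) in the RAD21 line at 0 h. At SMC3 it lay upstream in WT at 0 h (−130 in both lists) and at 10 h (−141 and −142) and downstream at 1 h in WT (226 and 224) and in the RAD21 line (197 and 182), while the RAD21 line at 0 h had 1 list on each side (−112 and 373). NIPBL had the widest span (994 bp), with summits 421 to 627 bp downstream in 8 lists and at 308 and −367 in the RAD21 line at 0 h. At PDS5A it lay 982 to 1040 bp downstream in WT at 0 h and 10 h, and at 365 and 485 bp at 1 h. At STAG2 it lay upstream of the canonical start in all lists, from −736 to −307, but the annotated gene begins further upstream, at chrX:123094062.

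**Figure D5:**
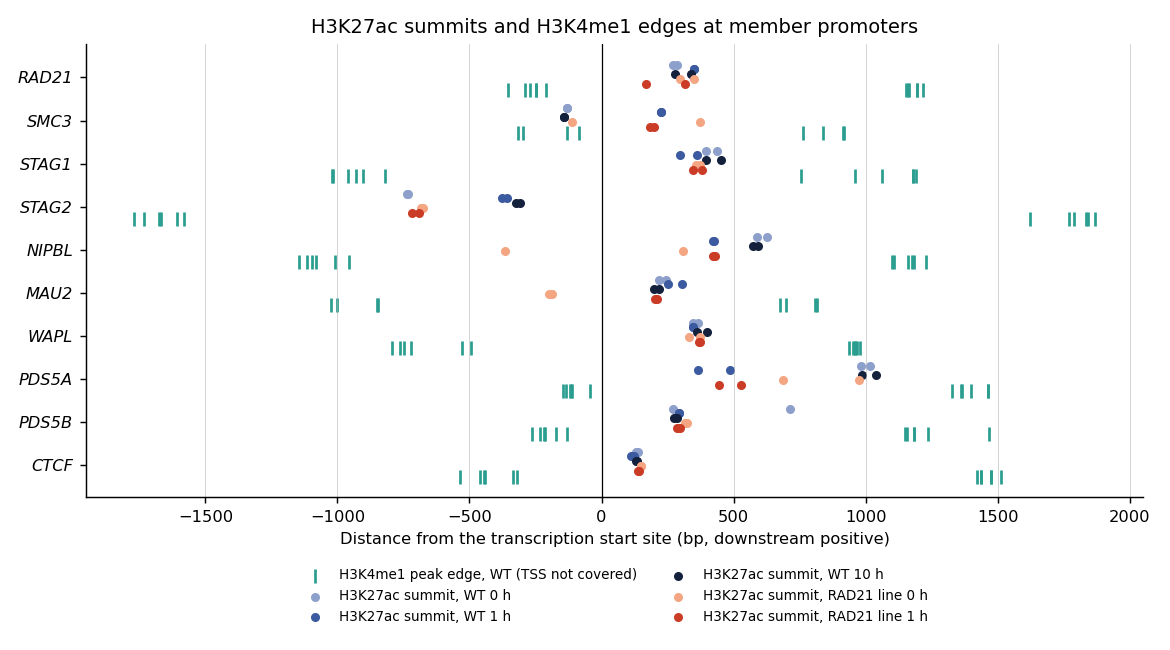
Distance from the canonical start site of each gene (horizontal axis, bp, positive downstream) of the H3K27ac summit, with 1 point per list by line and hours of Nutlin-3a, and of the nearest H3K4me1 peak edges on each side, with 1 tick per WT list in which that start site was not covered. The CTCF summits fall within 37 bp of each other, while those of SMC3 lie on both sides of the start.

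H3K4me1 was measured in WT only, and the promoters of all 10 genes had an H3K4me1 region in all 6 lists. When a −log10 q-value of 5 or more was required, 6 of the 10 were called in every list (not RAD21, STAG2, NIPBL and PDS5B), and with 50% of the region covered, also 6 (not SMC3, NIPBL, WAPL and CTCF). It flanked the start site, which was itself covered in 0 to 2 of the 10 genes per list (SMC3 and MAU2), against 42.4% to 61.6% of the 9442 coding start sites acetylated in every list. Measured from the canonical start site, the gap was widest at STAG2, where the nearest H3K4me1 lay 1580 to 1771 bp upstream and 1622 to 1870 bp downstream. STAG2 has 7 start sites of basic transcripts, and its canonical one is at chrX:123095556. The annotated gene begins at chrX:123094062, nearer to that upstream mark, whose region ends at chrX:123093976. The width of this gap therefore depends on the start site used. At PDS5A the mark came within 44 to 145 bp upstream and lay 1329 to 1465 bp downstream. The promoter regions of this mark are unlike units. At SMC3 and MAU2 the merged region (6834 and 6506 bp) spanned the start and took the higher value of both flanks. At the other genes it was the upstream flank alone, such as 684 bp at RAD21 and 976 bp at STAG2. The downstream flank of STAG2, a separate region, stood at 44.76 to 61.95. By percentile SMC3 was highest (mean 91.4) and STAG2 lowest (40.3), an order that was not corrected for this. In it, 3 neighbours differed beyond the SD of their difference. SMC3 exceeded MAU2 by 7.13 (SD 5.97, in 5 of 6 lists), PDS5A exceeded WAPL by 7.43 (SD 6.55, in 5 of 6) and RAD21 exceeded STAG2 by 21.8 (SD 12.08, in 6 of 6).

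None of the 63 H3K4me1 regions called in every list passed the limma threshold at 1 h, where 0.291% of 60476 regions ranked higher and 0.304% lower, or at 10 h, where 0.615% ranked higher and 0.0231% lower. At an unadjusted p under 0.05, 9 and 6 of the 63 passed, against 9401 and 5235 of all 60476 regions. The nearest were the promoters of CTCF and NIPBL. CTCF stood at 75.4 and 77.0 at 0 h, 90.8 and 94.9 at 1 h and 78.9 and 85.6 at 10 h, with both 1 h lists above the rest and a change of 0.82 ± 0.18 (limma, adjusted p = 0.0572, and 0.0447 with the replicate number as a block). NIPBL stood at 74.1 and 67.8 at 0 h, 73.8 and 71.5 at 1 h and 47.0 and 40.5 at 10 h, with both 10 h lists below the rest and a change of −0.83 ± 0.22 (limma, adjusted p = 0.145). The H3K27ac of neither promoter had a called change at that time.

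At 1 h, 4 of the 124 H3K4me1 regions came and 3 went, against 3.30% and 1.75% of 110269. At 10 h, 4 came and 2 went, against 2.63% and 2.28%. All of these were near the threshold of the peak caller, with highest −log10 p-values of 2.56 to 7.32. An exonic region of SMC3 (chr10:112359093-112360486) was lost at both times, with 3.38 and 2.89 at 0 h and no peak in the other 4 lists. Of the H3K4me1 regions called in both lists of a time point, 25 of 75 (33.3%) overlapped H3K27ac regions called in both lists at 0 h, 26 of 76 (34.2%) at 1 h and 31 of 75 (41.3%) at 10 h, with 34.2%, 32.7% and 35.4% over all regions. STAG1 stood out by number, with 21 H3K4me1 regions at 0 h of which 3 were acetylated.

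Other genes of the pathway were counted by their promoters. Of 20 further cohesin cycle and loop genes 17 were tested. The meiotic kleisin REC8 and the CTCF paralogue CTCFL had no H3K27ac at the promoter in any list, and RAD21L1, another meiotic kleisin, had it in 9. In WT at 1 h, SMC1B, ESPL1, DDX11 and MAZ ranked higher and SMC1A, ESCO2, SGO1 and SGO2 lower, where ESPL1 is separase, which cleaves RAD21, and SGO1 and SGO2 are shugoshins, which protect cohesin at centromeres. At 10 h, MAZ ranked higher and 6 genes lower, namely SMC1A (−0.43), SMC1B (−0.96), ESPL1 (−0.58), SGO1 (−0.61), SGO2 (−0.90) and DDX11 (−0.46). These counts over 17 genes stand beside 14.3% higher and 14.8% lower of all regions at 1 h and 9.70% and 8.56% at 10 h. The 10 h contrast compares lists of different forms. With the form as a term, an alternative added for this list after the data were seen, 1 gene (ESCO1) ranked higher and 1 (SMC1B) lower at 10 h. In that fit 386 of all 18757 regions ranked higher and 437 lower. SMC1A, the partner of SMC3 in the ring, thus had −0.34 at 1 h (limma, adjusted p = 0.0403), where SMC3 had 0.56. At 1 h in the RAD21 line, ESPL1, HASPIN and DDX11 ranked higher and SMC1B lower. The meiotic subunit SMC1B had the largest difference of 1 h changes between the lines in this list, at −2.23 (limma, adjusted p = 1.9e-05).

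All 13 genes of condensin and the SMC5/6 complex were tested, which are the other SMC complexes of the nucleus. In WT at 1 h, 3 ranked higher and 5 lower, while 10 h gave 0 and 6, among them SMC2 (−0.52), SMC4 (−0.40) and NCAPG2 (−0.97), against the same shares of all regions. With the form as a term, 0 were higher and 1 (NCAPG2) lower at 10 h, against 386 and 437 of all 18757 regions. None passed in the RAD21 line at 1 h in limma with all lists, against 14.4% higher and 13.4% lower of all regions. With the form as a term 4 ranked higher there, against 4261 of all 18757. The lists of that contrast have a single form, so the changes stayed the same and these calls came through the SE. At 0 h, 2 were higher and 8 lower in the RAD21 line than in WT, against 16.8% and 20.7% of all regions. With the form as a term these were 4 and 3, against 2215 and 2478 of all 18757. The median change at 10 h was −0.19 for these 13, −0.12 for the 17 cohesin cycle genes and −0.18 for the 10 genes described here, with −0.04 over all regions.

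Across the 10 H3K27ac lists, the promoters whose rank scores moved most like that of RAD21 were those of ZBTB44 (Pearson r = 0.920), FAM32A (0.896) and LIN9 (0.890), out of 10605 promoter regions. For CTCF they were the shared promoter of AAMDC and RSF1 (0.877) and those of MTCH1 (0.862) and ZNF703 (0.847). The lists share conditions and forms, so these coefficients describe likeness over these 10 lists only.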

How the data were processed

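ChIP-seq peak lists of H3K27ac (10 lists) and H3K4me1 (6 lists) were analysed. The 10 input libraries were not used here. Per the study's methods, reads were trimmed (Trim Galore 0.6.6), mapped to GRCh37 (Bowtie2 2.3.2), filtered for quality, duplicates and blacklisted regions, and peaks were called per library with MACS2 2.2.7.1 against an input (H3K27ac as narrow peaks, H3K4me1 as broad ones). The deposited lists give, from the authors' peak caller, a fold enrichment (ratio over local background), a −log10 p-value, a −log10 q-value and a display score, which was not used. They hold no read counts, so depth per library is not known here and no interval could be set. The lists hold 31640 to 49127 H3K27ac peaks and 84492 to 92943 H3K4me1 peaks.

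Groups came from the sample labels. Peaks were merged per mark, and 1 bp of overlap with a peak of a list sufficed to call a region there. Promoters were the 1000 bp before and the 200 bp after the start sites of basic GENCODE transcripts, and where a gene had several promoter regions the one with the highest mean −log10 p-value was described. Distances from a start site, and the promoter sequences, refer to the canonical transcript of the gene alone. Rank scores were fitted with limma 3.58.1 (R 4.3.3; lmFit and eBayes with a trend, all lists of a mark in 1 fit, no covariates), two-sided, with Benjamini-Hochberg adjustment over all regions tested and a threshold of 0.05. The scripts were tested on simulated data. Gained and lost regions are counts without a test, since 2 lists against 2 cannot reach 0.05 in an exact permutation test. Named regions were the 10 promoters, the strongest other region of each gene, and every region gained, lost or called. The replicates are biological per the study's methods, and the p-values measure the spread between these lists. Alternatives were ranks by fold enrichment, a −log10 q-value of at least 5, coverage of 50% of a region, the lists of the compared groups alone, the form of the peak name as a term, a replicate block and leaving out each list. Percentiles were also taken by fold, by width and among shared promoters. The members and lists were chosen with earlier results of these data known.

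Lists with the same replicate number did not deviate together (correlations of −0.05 to 0.045 over 10 pairs for H3K27ac and 0.001 to 0.007 over 3 for H3K4me1), so the numbers were not taken as pairs. Sequences were read from the GRCh37 genome. Regions near paralogues were not treated separately.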

Additional observations from a re-analysis of the deposited data

Results flagged for a closer look

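The change at 1 h of Nutlin-3a differed between WT and the RAD21 line, by the interaction term of limma with Benjamini-Hochberg adjustment over 18757 regions, at 6 of the 18 H3K27ac regions. Of all 18757 regions, 11.7% passed with a positive sign and 11.0% with a negative sign, beside 4 (22.2%) and 2 (11.1%) of the 18. A positive difference, in units of the rank score, means a higher change in the RAD21 line. They were positive at the promoters of MAU2 and SUGP1 (0.80 ± 0.17, adjusted p = 0.0049), NIPBL (0.71 ± 0.15, adjusted p = 0.00577) and RAD21 (0.66 ± 0.20, adjusted p = 0.035) and at the region 45.5 kb from the MAU2 start (0.89 ± 0.21, adjusted p = 0.00811). They were negative at the region of ACD and PARD6A in the CTCF window (−1.41 ± 0.17, limma, adjusted p = 0.000172) and at the region 57.3 kb from the MAU2 start (−1.43 ± 0.19, adjusted p = 0.000302). Of these, the RAD21 promoter kept its call in 4 of 10 fits that left out a list, the region 45.5 kb from MAU2 in 9 and the other 4 regions in 10. With ranks by fold enrichment none of the 6 passed the threshold, and 0 of all 18757 regions did.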

How the results depend on the processing

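The lists hold no read counts, so fold enrichment and p-values depend on the depth of each library, which is not known here. Each group has 2 lists, 18 H3K27ac regions were ranked in every list, and in WT at 10 h and in the RAD21 line against WT at 0 h the form of the peak names is separated from the group only through the 2 WT 1 h lists. The cause was not tested for any move given here unless it follows from how the alternative was built.

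Ranked by fold enrichment, 0 of the 18 H3K27ac regions ranked higher and 0 lower after 1 h in WT or the RAD21 line, between the lines at 1 h and for the difference of the 1 h changes. In these contrasts 0 of all 18757 regions ranked higher and 0 lower as well. This setting left 1 lower in WT at 10 h and 1 lower between the lines at 0 h, against 1796 and 2171 of all 18757 regions. Requiring a peak over 50% of a region left 6 regions to test, of which 1 ranked higher and 0 lower in WT at 1 h, 0 and 0 in WT at 10 h, 2 and 0 within the RAD21 line, 1 and 1 for the RAD21 line against WT at 0 h, 0 and 0 at 1 h and 0 and 0 for the difference. Of all 6425 regions tested there, the same order gave 1147 and 1209, 404 and 371, 1003 and 898, 1128 and 1336, 476 and 438, and 904 and 848. With the lists of the compared groups alone, 1 ranked higher in WT at 1 h, 4 higher and 5 lower of 20 in WT at 10 h, 7 higher within the RAD21 line, and between the lines 4 lower at 0 h, then 0 and 0 of 19 at 1 h. For all regions these were 844 of 21719, 3512 and 3564 of 21689, 4251 of 22451, 5350 of 20467, and 0 and 0 of 22465. With the form of the peak name as a term, 6 ranked lower in WT at 1 h, 0 higher in WT at 10 h, 7 higher within the RAD21 line, 1 lower in the RAD21 line against WT at 0 h and 5 higher at 1 h. Of all 18757 regions, 3022, 386, 4261, 2478 and 1891 did so, in this order. Within the RAD21 line, whose lists have a single form, the changes stayed the same and the calls moved through the SE. Among gained and lost regions, the 50% setting gave 2 gained in WT at 1 h, 0 lost in the RAD21 line at 1 h, 8 gained in the RAD21 line against WT at 0 h and 6 H3K4me1 regions lost at 10 h. The counts over all regions were 2297, 1792, 7705 and 3675, in this order. A −log10 q-value of at least 5 gave 9 gained in WT at 10 h, 0 lost in the RAD21 line at 1 h, 1 gained against WT at 0 h and 3 at 1 h, whereas H3K4me1 then had 1 region gained and 0 lost at 1 h, with 0 gained at 10 h. Here the counts over all regions were 3560, 809, 1826 and 2221, and 1482, 1395 and 1092 for H3K4me1.

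The same replicate numbers do not mark pairs here, and with the replicate number as a block 1 of 63 H3K4me1 regions, the CTCF promoter, ranked higher at 1 h, against 0 without the block. Of all 60476 regions, 205 ranked higher with the block and 176 without it. The block changed no other call among the regions named and moved no other count by over 1.5 times.

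Leaving out 1 list at a time moved the numbers of H3K27ac regions ranked higher and lower in most contrasts, while the H3K4me1 calls did not change. Each such fit leaves a group with 1 list, so the counts are not given. H3K27ac regions gained and lost ran from 0 to 9 and 0 to 6 in WT at 1 h, 24 to 63 and 0 to 4 at 10 h, 9 to 17 and 1 to 13 in the RAD21 line at 1 h, 2 to 17 and 1 to 7 against WT at 0 h and 9 to 20 and 1 to 5 at 1 h. For H3K4me1 they ran from 4 to 12 and 3 to 11 at 1 h and from 5 to 11 and 3 to 11 at 10 h. A group of 1 list meets the rule of presence in every list more easily, which raises these counts by construction. Over all regions, those gained in WT at 10 h rose too, from 10018 with all lists to between 10766 and 19326, and those lost there ran from 2347 to 4901. In WT at 1 h, all regions gained and lost ran from 1917 to 11534 and 1970 to 4490. In the RAD21 line at 1 h they ran from 5187 to 8605 and 3215 to 10882. Against WT they ran from 5201 to 14174 and 3254 to 5959 at 0 h, and from 3828 to 7650 and 1398 to 8319 at 1 h. For H3K4me1 they ran from 5195 to 11935 and 3487 to 7062 at 1 h, and from 3884 to 6984 and 3951 to 9407 at 10 h. The numbers of all 18757 regions ranked higher or lower moved in the same fits as well. The PDS5B promoter reversed without WT 1 h replicate 2, where the RAD21 line against WT at 1 h gave −0.43 ± 0.15 (limma, adjusted p = 0.0373), while it was 0.51 without WT 1 h replicate 1 and 0.04 ± 0.23 with all lists. Of 80 mean promoter percentiles by group, 78 moved by more than the SD of the replicates when taken among promoters called in every list, 66 when ranked by peak width and 45 by fold enrichment. Among shared promoters the order of the 10 genes for H3K27ac was as in the report, and PDS5B was at 43.9.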
